A study of Bos taurus with 12 samples.

Results

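Semaphorins, ephrins, SLIT proteins and netrins are the classical ligands of axon guidance, and plexins, Eph receptors, ROBO receptors and UNC5 receptors are the receptors they bind. In the blood of 12 dairy cows, 1037 cytosines whose methylation had been selected by the authors as different between subfertile and fertile cows were assigned to 51 genes with the names of these 8 families. Members were taken by the name of their gene, and the families were chosen with earlier results of these data known. Each cytosine was assigned to the gene named in its annotation. Where none was named, or the named gene had no symbol, the nearest gene was used. A cytosine counted when it was not annotated as distal intergenic and when the symbol of its gene began with SEMA, PLXN, EPHA, EPHB, EFNA, EFNB, ROBO, UNC5 or NTN, or was SLIT1, SLIT2 or SLIT3. The 51 genes stood among 10686 genes with at least 1 such cytosine, and the 1037 sites among 92535 that were not distal intergenic and 216990 in all.

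The subfertile group was formed of 6 cows culled in the year after sampling for reproductive problems unknown when the blood was drawn. The fertile group was formed of 6 cows that stayed in the herd without fertility problems. All 12 animals were 3 to 8 years old and shared 1 farm and its conditions, and DNA came from 1 mL of whole blood each. The labels give subfertile and fertile under the field genotype, and no breed or pairing of cows was used here. Each value gives, for a cytosine and a cow, the percent called methylated after enzymatic conversion, which reads methylated and hydroxymethylated cytosines alike. Read numbers are unknown, so the precision of single percent values is unknown too. Values were missing at up to 5.40% of the member sites, in subfertile cow 3, and at no fewer than 0.193%, in fertile cow 1. Whole blood mixes cell types, so a different level in each cell and a different mix of cells cannot be told apart. The deposited columns of the subfertile cows carry the letter F and those of the fertile cows the letter R, with no explanation of the letters. Groups follow the sample labels; were the letters swapped, all directions below would be reversed.

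Guidance proteins steer growing axons and migrating cells by attraction or repulsion at contact or over a distance. Secreted class 3 semaphorins act through neuropilins and plexins, membrane-bound ephrins signal in both directions with Eph receptors on the neighbouring cell, SLIT proteins repel through ROBO receptors, and netrins attract through DCC and repel through UNC5 receptors. The same families also pattern blood vessels, and several semaphorins and plexins act between immune cells, as SEMA4D, SEMA4A and SEMA7A do. Methylation inside the long introns of such genes has no fixed relation to their transcription, and no expression was measured in these cows.

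The sites were spread unevenly. EPHB1 held 156, SEMA5A 91, EFNA5 77, UNC5B 71 and EPHB2 60, so these 5 genes held 455 of the 1037 sites (43.9%). At the other end, 16 genes held 1 or 2 sites. Introns held 978 sites, promoters 28, exons 28, the regions just downstream of genes 2 and a 3′ UTR 1. The first intron held 37.5% of the members' intron sites, against 25.1% of all intron sites of the table. RefSeq lists 19 further symbols of these families with no site in the table analysed here: EFNA1, EFNA3, EFNB3, EPHA1, EPHA4, EPHA10, EPHB3, NTN3, NTN5, PLXNA3, PLXNB1, PLXNB3, ROBO3, SEMA3B, SEMA4F, SEMA4G, SEMA6B, SEMA6C and UNC5CL. UNC50 entered by the letters of its name and is no netrin receptor. Its 2 sites and the 4 of SEMA4C lay in introns of genes without a symbol and were assigned to the nearest gene. Promoter, downstream and 3′ UTR sites name no gene in their annotation and were also assigned to the nearest gene. The 3′ UTR site of ROBO4, at 28382088, thus lay outside that gene (28351069 to 28365789). So did the downstream sites of SEMA7A (34223534, gene from 34234871) and NTNG2 (102337927, gene up to 102324089). For 313 member sites the nearest gene start belonged to another gene, as for 52 of the 71 UNC5B sites, which were nearest to the start of SLC29A3.

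**Figure D1:**
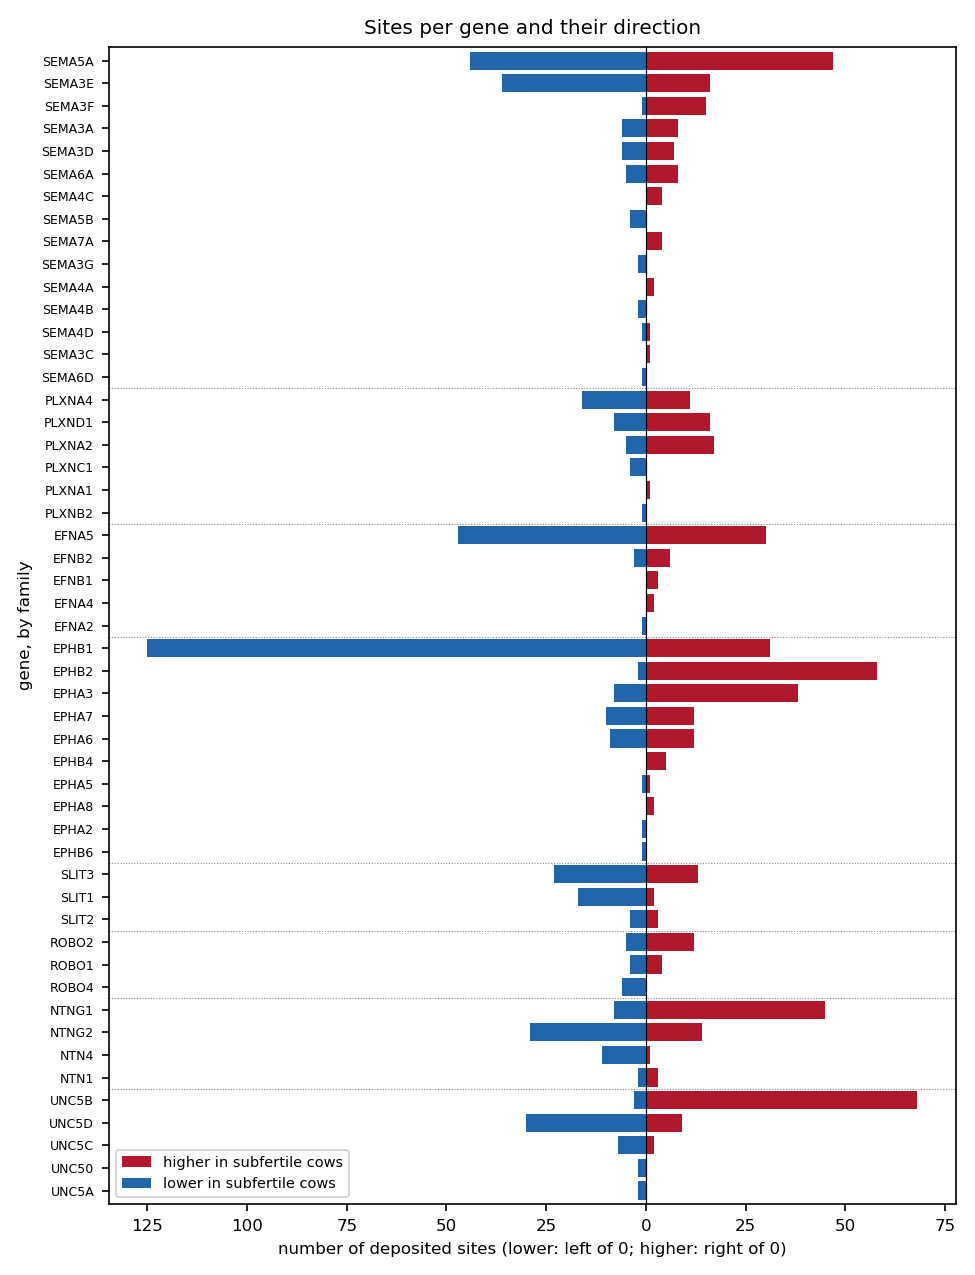
Number of deposited sites in each of the 51 genes, by family from semaphorins at the top to UNC5 genes at the bottom; red bars to the right count sites with a higher mean in subfertile cows and blue bars to the left count sites with a lower one. EPHB1 (125 of 156 lower), UNC5B (68 of 71 higher) and EPHB2 (58 of 60 higher) stand out by their number of sites in 1 direction.

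Methylation was higher in subfertile cows at 534 member sites and lower at 503. The share of higher sites was 51.5%, against 50.6% over all sites that were not distal intergenic. Ligand genes had 235 higher and 253 lower sites, and receptor genes 299 higher and 250 lower. Among the families, UNC5 genes had 79 higher and 44 lower sites, with 68 of the 79 in UNC5B, while SLIT genes had 18 higher and 44 lower sites. Within genes the direction was often mixed. Of the 23 genes with at least 10 sites, 8 (34.8%) had at least 80% of them in 1 direction, against 45.6% of all 2180 genes with that many. These counts are descriptions, because the authors kept only sites with a group difference above 25 percentage points.

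The mean level of each gene in each cow, taken over its sites, was compared between the groups with limma on log2 of (percent + 5)/(100 - percent + 5), with Benjamini-Hochberg adjustment over all genes of the table. Of the 51 genes, 49 had a value in all 12 cows. PLXNB2 and SEMA4A, with 1 and 2 sites, lacked one and were not tested. None of the 49 passed an adjusted p of 0.05 by limma, against 0.112% of all genes, and the smallest adjusted p among them was 0.0659. At an unadjusted p under 0.05 by limma there were 18 genes (36.7%), 11 higher and 7 lower in subfertile cows, against a background of 40.4%. The 2 groups of cows did not overlap for 2 genes, UNC5B and EPHA3 (4.08%), against 3.29% of all genes. These shares lie near the background and are no result about these families. The median absolute difference of gene means was 22.6 points in the members and 26.2 points over all genes. Without subfertile cow 4, SEMA3G, whose 2 sites are the strands of 1 CpG, passed with an adjusted p of 0.0344 by limma. In that fit 64 of all 9837 genes passed, against 11 with all cows.

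**Figure D2:**
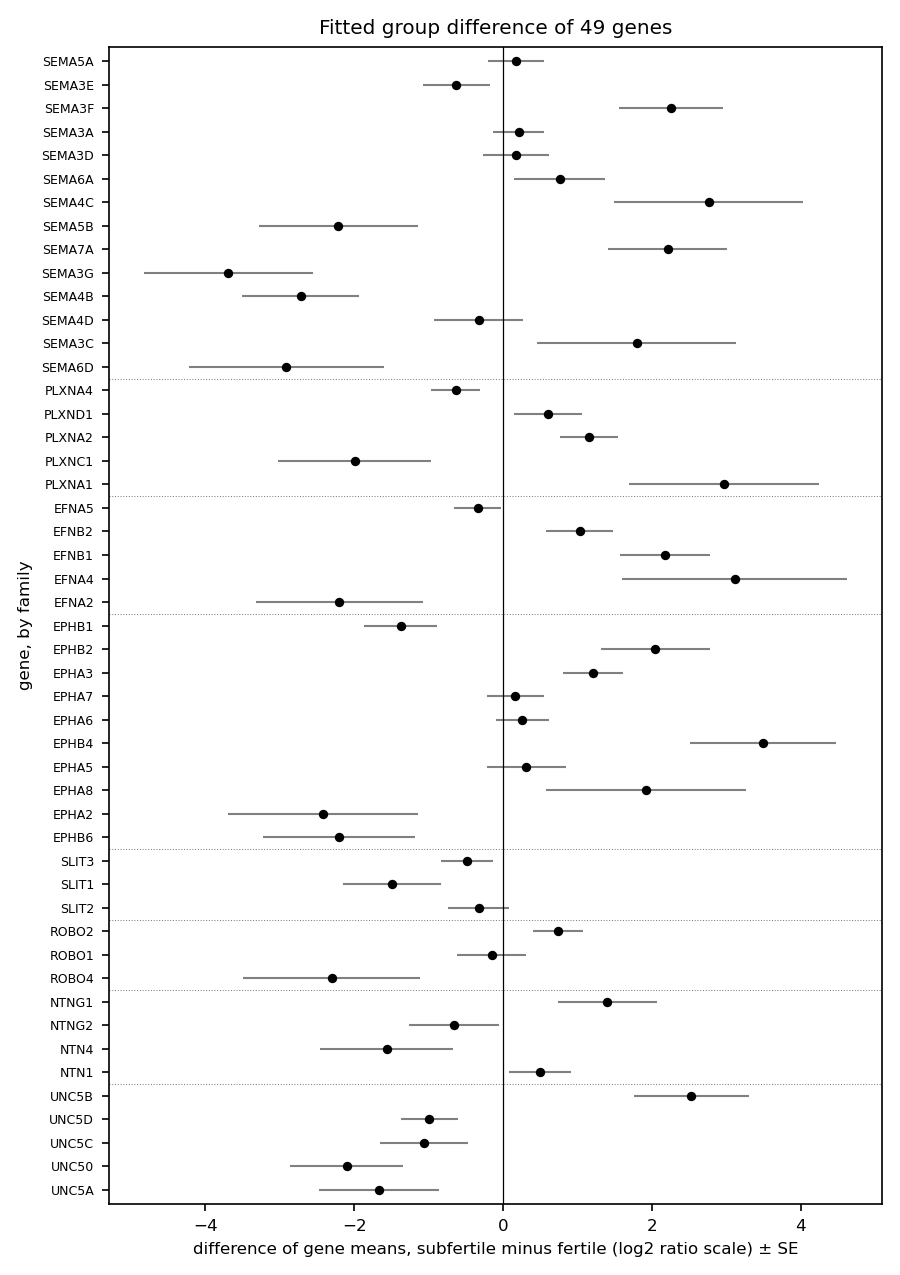
Fitted difference of gene means, subfertile minus fertile, on the log2 ratio scale, with its standard error as a bar, for the 49 tested genes by family. Dots right of 0 are higher in subfertile cows; none of the genes passed the adjusted threshold, and 18 had an unadjusted p under 0.05.

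Sites less than 1 kb apart were joined into clusters, because neighbouring cytosines share their level. The members held 98 clusters of at least 3 sites, with 469 sites in all. By limma, 26 of the 98 clusters (26.5%) passed an adjusted p of 0.05, against 24.4% of all clusters. Of the 26, 15 were higher in subfertile cows and 11 were lower. Of the 4338 clusters that passed in the whole table, 2344 were higher and 1994 lower. At an unadjusted p under 0.05 by limma there were 58 member clusters (59.2%), against 59% of all clusters. The 26 lay in 12 genes: 7 in EPHB1, 4 each in UNC5B and EFNA5, 3 in PLXND1, and 1 each in EPHB2, EPHA7, NTNG1, NTNG2, PLXNA4, SEMA3F, SEMA6A and UNC5D. All 26 lay mainly in introns. Only the 15-site cluster of UNC5B kept the 2 groups of cows apart (1.02% of the member clusters, against 4.08% of all clusters). The adjusted p of the 26 clusters lay between 0.0306 and 0.0495, so the calls stand close to the threshold. With 1 cow left out, 1 cluster passed without subfertile cow 6, 4 each without fertile cows 2, 3 and 4, 6 without subfertile cow 3, 7 each without subfertile cow 5 and fertile cow 1, 8 each without subfertile cow 1 and fertile cow 5, 10 without subfertile cow 2, 11 without subfertile cow 4 and 13 without fertile cow 6. Over all clusters the share that passed fell too, from 24.4% to between 5.86% (without subfertile cow 6) and 15.8% (without fertile cow 5).

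**Figure D3:**
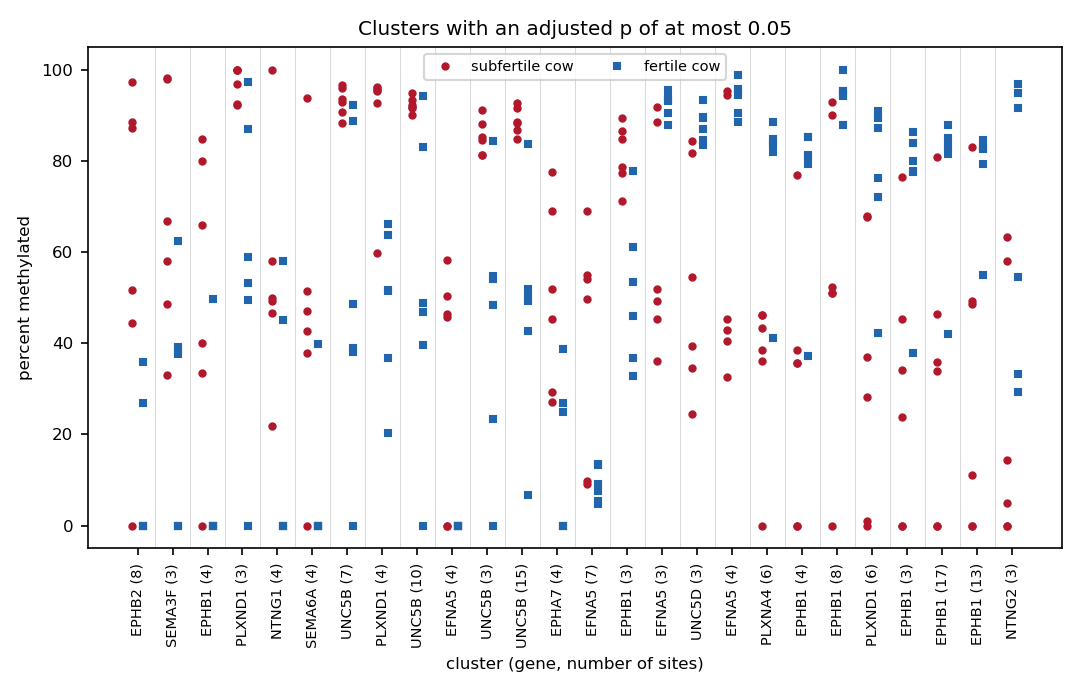
Mean percent methylated of each cow in the 26 clusters with an adjusted p of at most 0.05, ordered from higher to lower in subfertile cows; red dots are the 6 subfertile and blue squares the 6 fertile cows, and the number of sites stands in brackets after the gene. Within a cluster the cows sit at separate levels, often near 0, near 45 and near 90%, and the groups overlap in every cluster but the UNC5B cluster of 15 sites.

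Among the semaphorins, which held 221 sites in 15 genes, subfertile cows were higher at 113 and lower at 108. SEMA3F, a secreted ligand that signals through neuropilin-2, had the largest positive difference of the tested genes with at least 10 sites bar UNC5B. Its mean ran from 49.8 to 91.9% in subfertile cows (median 55.2%) and from 9.95 to 51.1% in fertile cows (median 27.0%). Only fertile cow 6 reached into the range of the subfertile cows, and fertile cows 1, 3 and 4 lay at 9.95 to 11.9%. The difference was 35.4 points (log2 difference 2.26, SE 0.70, unadjusted p 0.00713 and adjusted p 0.0750 by limma), with 15 of 16 sites higher. A cluster of 3 sites in the first intron of SEMA3F (chromosome 22, positions 50185886 to 50186317, ARS-UCD1.2) averaged 67.1% ± 26.4 in subfertile cows and 23.2% ± 26.9 in fertile cows (SD, n = 6 each), with an adjusted p of 0.0460 by limma.

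SEMA5A, a transmembrane semaphorin with thrombospondin repeats, held runs of opposite direction that cancelled in its mean. The gene averaged 49.5% ± 3.66 in subfertile cows and 46.2% ± 11.2 in fertile cows (SD, n = 6 each), with 47 sites higher and 44 lower. The difference of 3.26 points was 0.189 without fertile cow 1 and 7.2 without fertile cow 6. In the 5 clusters between positions 64001006 and 64030763 of chromosome 20, subfertile cow 5 lay at 48.6 to 62.8% and the other subfertile cows at 66.5 to 97.2%. In the same clusters fertile cows 1 and 3 lay at 0, fertile cow 4 at 22.5 to 46.4% and the others at 57.5 to 93.1%. In the 4 clusters between 64053142 and 64070079, subfertile cow 5 lay at 32.3 to 45.8% and the other subfertile cows at 0. There fertile cow 3 lay at 87.6 to 96.3%, fertile cows 1, 4 and 6 at 42.0 to 54.4%, and fertile cows 2 and 5 at no more than 1.02%. The same cow held the same kind of level from cluster to cluster within each run. None of the 13 SEMA5A clusters passed an adjusted p of 0.05 by limma. The smallest adjusted p among them was 0.0520.

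SEMA3E, the secreted ligand of PLXND1, showed such a run in its first intron. In 4 of its 6 clusters, subfertile cows 1, 3, 4, 5 and 6 were under 15%, as were fertile cows 2 and 4. Subfertile cow 2 lay at 38.2 to 52.8% over all 6 clusters, and fertile cow 3 at 56.8 to 95.8%. Its gene mean was 30.9% ± 7.56 in subfertile cows and 42.3% ± 15.2 in fertile cows (SD, n = 6 each; adjusted p 0.259 by limma), and the difference of -11.4 points was -6.53 without fertile cow 3. SEMA3A, the prototype repellent of this class, averaged 44.3% ± 6.76 in subfertile cows and 40.3% ± 6.23 in fertile cows over 14 sites, 8 of them higher, a difference of 3.95 points that was 2.51 without fertile cow 1 and 2.59 without subfertile cow 5. SEMA3D had 7 higher and 6 lower sites, and SEMA6A 8 higher and 5 lower. SEMA6A was the gene with 1 cow apart in each group: subfertile cow 5 at 95.3% against 42.2 to 61.8% in the other subfertile cows, and fertile cow 4 at 71.2% against 42.6 to 46.6% in the other fertile cows. Its difference of 11.5 points was 4.52 without subfertile cow 5.

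The semaphorins best known from leukocytes held few sites. SEMA7A, a membrane-anchored ligand of integrins and PLXNC1, was higher at all 4 sites assigned to it, including the downstream site outside the gene. Its mean ran from 45.9 to 98.5% in subfertile cows (median 71.7%) and from 11.2 to 58.9% in fertile cows (median 45.6%). The 2 ranges overlapped, and the difference of 32.4 points had an unadjusted p of 0.0165 and an adjusted p of 0.0879 by limma. SEMA4D, the CD100 of T cells, had 1 site in each direction. SEMA4A had 2 higher sites, and SEMA4C 4, with 82.0% ± 25.4 in subfertile cows and 49.3% ± 35.5 in fertile cows (SD, n = 6 each). SEMA4B had 2 lower sites and averaged 68.6% ± 28.0 in subfertile cows and 98.8% ± 2.0 in fertile cows. SEMA3G had 2 lower sites, at 48453114 and 48453115 of chromosome 22, the 2 strands of 1 CpG. They averaged 34.8% ± 35.3 in subfertile cows and 87.5% ± 5.94 in fertile cows, with subfertile cow 4 alone at 95.8% and subfertile cows 3 and 5 at 0. SEMA5B had 4 sites, all lower, at 59.8% ± 34.2 in subfertile cows and 92.1% ± 10.5 in fertile cows. SEMA3C had 1 higher site and SEMA6D 1 lower site.

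Of the plexins, the receptors of the semaphorins, PLXNA4 had 27 sites, PLXND1 24, PLXNA2 22, PLXNC1 4 and PLXNA1 and PLXNB2 1 each. PLXND1, the receptor of SEMA3E in vessels and thymus, carried clusters of both directions. In 4 sites at positions 56149578 to 56150753 of chromosome 22, in the first intron, subfertile cow 3 lay at 59.7% and the other 5 subfertile cows at 92.8 to 96.2%. The fertile cows there ran from 20.3 to 66.1% (median 51.5%), so fertile cows 1 and 5 overlapped with subfertile cow 3 alone. This cluster had the smallest adjusted p of all member clusters, 0.0306 by limma (log2 difference 3.0, SE 0.68). Further along, in intron 20, 6 sites at 56173466 to 56174351 lay at 0 to 68.0% in subfertile cows (median 32.6%) and at 42.3 to 90.9% in fertile cows (median 81.8%), with an adjusted p of 0.0469 by limma. All in all PLXND1 had 16 higher and 8 lower sites and a mean of 69.2% ± 5.67 in subfertile cows and 58.0% ± 16.0 in fertile cows (SD, n = 6 each), and the difference of 11.2 points was 7.09 without fertile cow 3. Of its 24 sites, 18 lay nearest to the start of another gene, H1-8.

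PLXNA2 averaged 69.2% ± 8.08 in subfertile cows and 48.5% ± 9.67 in fertile cows, with 17 of 22 sites higher and an unadjusted p of 0.0114 (adjusted p 0.0809) by limma. Subfertile cow 1 at 57.5% lay below fertile cow 6 at 62.7%, and all other fertile cows lay below every subfertile cow. In PLXNA4, 6 sites of the first intron at 95950369 to 95951059 of chromosome 4 lay at 36.2 to 46.2% in 5 subfertile cows and at 0 in subfertile cow 6. The fertile cows there lay at 82.0 to 88.6%, except fertile cow 1 at 41.1%, and the adjusted p was 0.0436 by limma. Over the whole gene PLXNA4 averaged 53.8% ± 6.32 in subfertile cows and 65.4% ± 5.04 in fertile cows. PLXNC1, the receptor of SEMA7A, was lower at all 4 sites, with 64.9% ± 27.4 in subfertile cows and 89.5% ± 20.5 in fertile cows. This order is opposite to that of its ligand gene, and neither passed the adjusted threshold by limma.

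Of the ephrins, EFNA5, a lipid-anchored ligand of EphA receptors, held 77 of the 92 sites, all of them in introns. Its gene mean was close in the 2 groups, at 56.1% ± 4.77 in subfertile cows and 62.4% ± 4.31 in fertile cows (SD, n = 6 each; adjusted p 0.372 by limma), with 30 sites higher and 47 lower. Its first intron held 4 clusters with an adjusted p of at most 0.05. In 4 sites at 106660539 to 106660622 of chromosome 7, subfertile cows 3 to 6 lay at 45.8 to 58.3%, and subfertile cows 1 and 2 and all 6 fertile cows at 0. In 7 sites at 106663902 to 106664597, subfertile cows 3 to 6 lay at 49.7 to 69.0%, subfertile cows 1 and 2 at 9.18 and 9.89%, and the fertile cows at 4.76 to 13.4%. In 2 further clusters of 3 and 4 sites at 106688711 and 106704077, the same 4 subfertile cows lay at 32.5 to 51.9%, while subfertile cows 1 and 2 lay at 88.5 to 95.2% and the fertile cows at 87.9 to 98.8%. Thus subfertile cows 3 to 6 lay near the middle of the scale in these 4 clusters, whether the other 8 cows were near 0 or near 90%. The 4 were picked because they passed on these same values. The adjusted p was 0.0458, 0.0474, 0.0458 and 0.0485 by limma, in the order given. The other EFNA5 clusters, of 7 in all, did not share this order in full. At 106640114 subfertile cows 3, 4 and 6 lay at 36.2 to 45.5% but subfertile cow 5 at 97.6%. At 106506515 subfertile cow 6 lay at 82.1%, and at 106537139 subfertile cows 5 and 6 lay at 70.7 and 68.8%. EFNB1, on the X chromosome, was higher at all 3 sites, with 81.5 to 95.6% in subfertile cows (median 85.9%) and 36.4 to 84.2% in fertile cows (median 39.4%; adjusted p 0.0659 by limma). Fertile cows 3 and 5, at 79.9 and 84.2%, lay close to the subfertile cows and the other 4 at 36.4 to 40.4%. EFNB2, the arterial ligand of EPHB4, had 6 higher and 3 lower sites. It held the site with the largest absolute difference of the members in the authors' deposited table, at position 82277839 of chromosome 12, with 63.7 points and a q-value of 8.06e-12. The authors' difference is not the difference of cow means, which was 59.9 points there and -62.0 points at an EPHB1 site (chromosome 1, position 134481006, first intron), with 29.6% ± 34.2 in subfertile cows and 91.7% ± 20.4 in fertile cows (SD, n = 6 each). The EFNB2 site lay at 40 to 100% in subfertile cows (median 92.5%) and at 0 to 64.3% in fertile cows (median 9.09%), so the groups overlapped. EFNA4 had 2 higher sites and EFNA2 1 lower site.

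**Figure D4:**
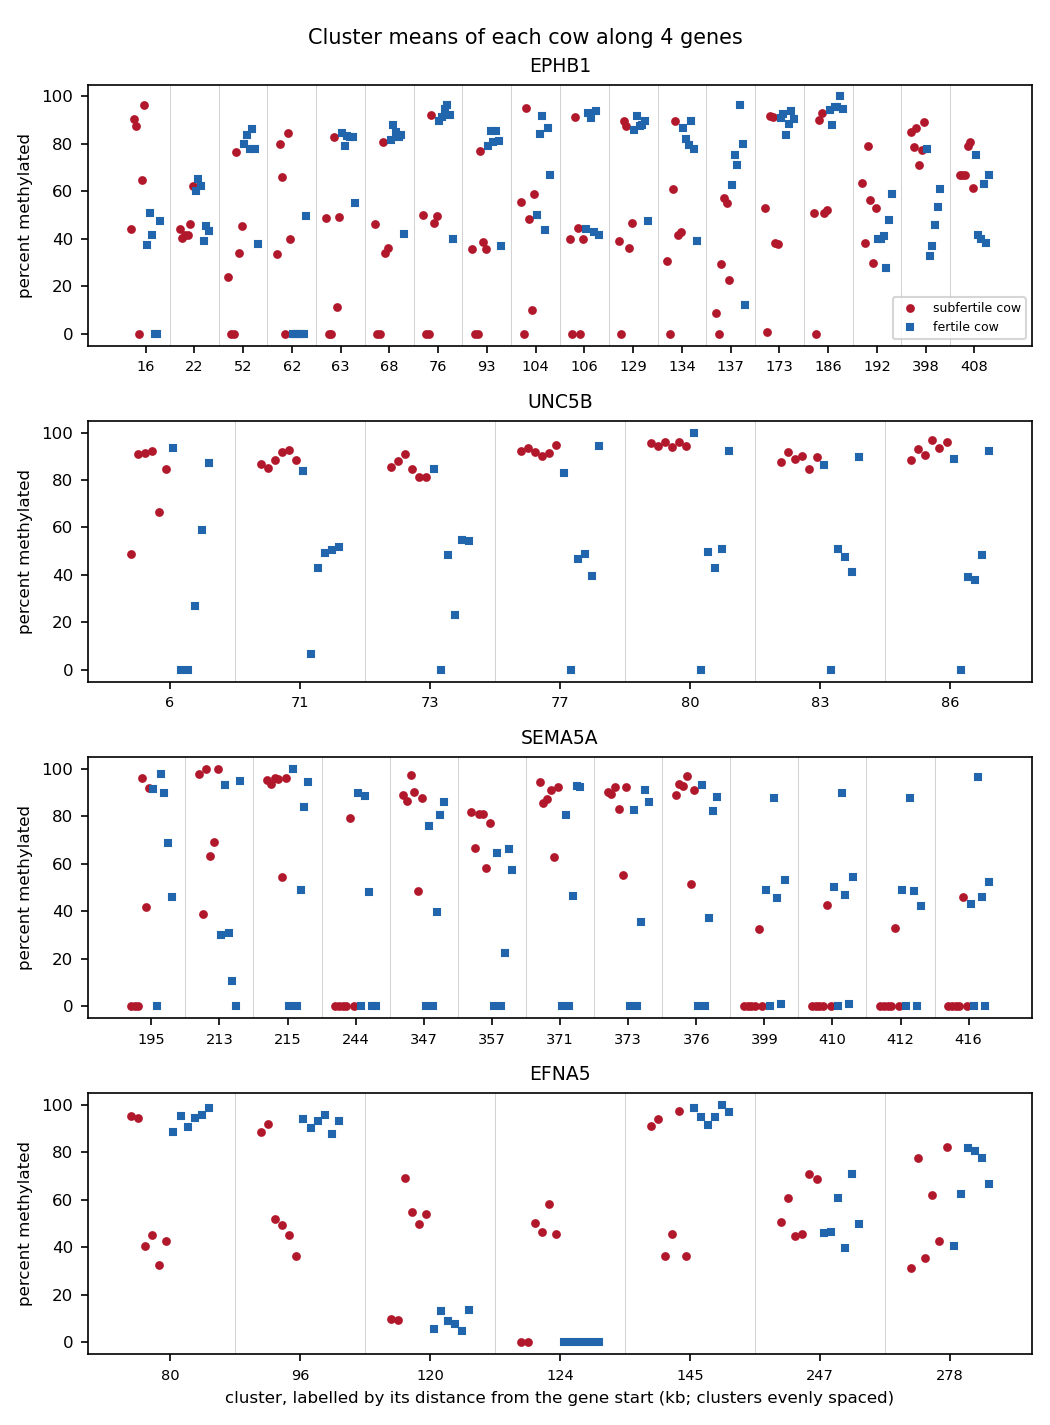
Mean percent methylated of each cow in every cluster of at least 3 sites of EPHB1, UNC5B, SEMA5A and EFNA5, in order of distance from the gene start (kb, printed under each cluster; clusters are evenly spaced, not to scale); within a cluster the red dots are subfertile cows 1 to 6 from left to right, followed by the blue squares of fertile cows 1 to 6. Some cows keep a similar level over neighbouring clusters, as subfertile cow 2 at 0 in most EPHB1 clusters and fertile cow 2 near 0 in UNC5B. Others change along a gene, as subfertile cow 3 in EPHB1.

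The Eph receptors, tyrosine kinases that bind ephrins, held 316 sites in 10 genes, more than any other of the 8 families. EPHB1 alone held 156, of which 125 were lower in subfertile cows. Its gene mean ran from 17.2 to 70.9% in subfertile cows (median 44.3%) and from 53.1 to 73.0% in fertile cows (median 71.8%). Subfertile cow 2 was lowest of all cows and subfertile cow 4, at 70.9%, lay among the fertile cows. Fertile cow 6, at 53.1%, was the only fertile cow under 70.3%. The difference was -24.5 points (log2 difference -1.38, SE 0.49, unadjusted p 0.0156 and adjusted p 0.0871 by limma). Subfertile cow 2 was at 0 at 122 of the 155 EPHB1 sites where it had a value. Without that cow the difference was -19.1 points. Over the 24 EPHB1 sites without a cow under 10% and a cow over 80%, the difference was 1.92 points.

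Along part of the first intron of EPHB1, from 134459541 to 134501766 of chromosome 1, a run of clusters repeated 1 order of cows, 1 of them mirrored. Elsewhere in that intron the order differed. In the clusters from 134418423 to 134449967, subfertile cow 3 lay at 61.0 to 95.2%, and subfertile cow 5 lay at 0 in the one at 134447347. In 17 sites at 134482099 to 134485618, subfertile cows 2 and 3 lay at 0, subfertile cows 1, 5 and 6 at 34.0 to 46.3% and subfertile cow 4 at 80.8%. Fertile cow 6 lay at 42.1% there and the other fertile cows at 81.6 to 88.0% (adjusted p 0.0463 by limma). The 13 sites at 134487708 to 134490193 gave a like order, with 0 in subfertile cows 2 and 3 and 79.3 to 84.7% in fertile cows 1 to 5 (adjusted p 0.0460 by limma). Next to them, 4 sites at 134491233 to 134491474 had the mirrored order. There subfertile cow 4 lay at 0, subfertile cows 1 and 6 at 33.5 and 40% and subfertile cows 2, 3 and 5 at 65.9 to 84.7%, against 0 in fertile cows 1 to 5 and 49.7% in fertile cow 6 (adjusted p 0.0460 by limma). A cluster of 3 sites in intron 10, at 134155528 to 134155788, was also higher, with 71.1 to 89.4% in subfertile cows (median 81.8%) and 32.8 to 77.8% in fertile cows (median 49.7%; adjusted p 0.0457 by limma). Fertile cow 1, at 77.8%, was the only fertile cow that reached the subfertile range there.

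EPHB2, the close relative of EPHB1, pointed the other way, with 58 of 60 sites higher. Its mean ran from 55.0 to 90.6% in subfertile cows (median 82.8%) and from 8.56 to 70.3% in fertile cows (median 50.2%). Fertile cows 2, 3 and 6 lay within the subfertile range, and fertile cow 5 was at 0 at 50 of the 57 sites where it had a value. The difference was 31.6 points (log2 difference 2.04, SE 0.73, unadjusted p 0.0157 and adjusted p 0.0872 by limma). Over the 4 EPHB2 sites without a cow under 10% and a cow over 80%, it was -1.45 points. Of its 9 clusters, 1 passed, with 8 sites in intron 2 at 129999301 to 130000075 of chromosome 2, at 0 to 97.3% in subfertile cows (median 69.4%) and 0 to 36.0% in fertile cows (median 0; adjusted p 0.0460 by limma). Subfertile cow 5 was the only subfertile cow at 0 there, with fertile cows 1, 4, 5 and 6.

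EPHA3 was one of the 2 genes whose groups did not overlap. Its mean over 46 sites ran from 54.4 to 64.6% in subfertile cows (median 55.8%) and from 17.9 to 49.7% in fertile cows (median 36.3%), with 38 sites higher. The difference was 21.7 points (log2 difference 1.21, SE 0.41, unadjusted p 0.0112 and adjusted p 0.0808 by limma). The subfertile cows lay close together, and fertile cow 4 was lowest. Neither of its 2 clusters passed. In the cluster of 10 sites the subfertile cows lay at 76.9 to 87.6% and fertile cows 3, 5 and 6 at 82.0 to 84.2%. EPHB4, the venous receptor of EFNB2, had the largest difference of gene means among genes with at least 3 sites, 46.4 points over 5 sites. It lay at 18.2 to 93.1% in subfertile cows (median 64.5%) and at 0 to 50.7% in fertile cows (median 4.95%; log2 difference 3.49, SE 0.98, adjusted p 0.0661 by limma). Subfertile cow 4 alone lay in the fertile range. EPHA7 had 12 higher and 10 lower sites and EPHA6 12 and 9. A cluster of 4 EPHA7 sites at 56794910 to 56795560 of chromosome 9 lay at 27.0 to 77.6% in subfertile cows and at 0 to 38.6% in fertile cows (adjusted p 0.0459 by limma). EPHA5 and EPHA8 had 2 sites each and EPHA2 and EPHB6 1 each.

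SLIT1, SLIT2 and SLIT3, the secreted repellents of midline crossing, were all lower on average in subfertile cows, and none passed an adjusted p of 0.05 by limma. SLIT1 had 17 of 19 sites lower, and its mean ran from 47.6 to 91.7% in subfertile cows (median 68.4%) and from 84.6 to 94.8% in fertile cows (median 92.1%). Subfertile cows 2, 4 and 5 lay at 47.6 to 48.9%, and subfertile cows 1, 3 and 6 at 88.0 to 91.7%, within the range of the fertile cows. The difference was -21.5 points (log2 difference -1.49, SE 0.66, unadjusted p 0.0421 and adjusted p 0.115 by limma). SLIT3 averaged 44.4% ± 5.53 in subfertile cows and 53.4% ± 8.59 in fertile cows over 36 sites, and SLIT2 48.0% ± 11.6 in subfertile cows and 54.2% ± 9.26 in fertile cows over 7 (SD, n = 6 each). Their receptors were mixed. ROBO2 averaged 46.3% ± 4.73 in subfertile cows and 32.9% ± 6.65 in fertile cows over 17 sites (unadjusted p 0.0458 and adjusted p 0.120 by limma). ROBO1, with 4 sites in each direction, averaged 46.4% ± 17.1 in subfertile cows and 48.7% ± 3.75 in fertile cows. ROBO4, the endothelial member of the family, was lower at all 6 sites assigned to it, including the 3′ UTR site outside the gene. It lay at 0 in subfertile cows 2, 3, 5 and 6, at 10.2% in subfertile cow 1 and at 44.6% in subfertile cow 4, against 0 in fertile cows 1 and 6 and 44.6 to 84.2% in the other fertile cows.

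Netrins held 113 sites in 4 genes. NTNG1 and NTNG2 encode netrin-G proteins, which are anchored to the membrane and do not bind DCC. NTNG1 had 45 of 53 sites higher and ran from 19.1 to 83.8% in subfertile cows (median 48.1%) and from 14.5 to 51.4% in fertile cows (median 17.4%; adjusted p 0.131 by limma). Subfertile cow 5 was highest of all cows at 43 sites, subfertile cow 1, at 19.1%, lay close to the low fertile cows, and fertile cows 2 and 3, at 48.0 and 51.4%, lay among the subfertile cows. In all 4 NTNG1 clusters, on chromosome 3 between 35954985 and 35973914, subfertile cow 5 lay at 84.9 to 100%, against 0 in fertile cows 1, 4, 5 and 6 and 35.2 to 58.0% in fertile cows 2 and 3. Only the last of these clusters passed, with an adjusted p of 0.0495 by limma. NTNG2 had 14 higher and 29 lower sites. Its cluster of 3 sites at 102293639 to 102294373 of chromosome 11 lay at 0 to 63.4% in subfertile cows (median 9.64%) and at 29.3 to 97.0% in fertile cows (median 73.1%; adjusted p 0.0481 by limma). NTN4, a netrin of basement membranes, was lower at 11 of 12 sites, with 41.8% ± 26.0 in subfertile cows and 66.1% ± 24.9 in fertile cows. NTN1, the founding netrin, had 3 higher and 2 lower sites at 71.9% ± 11.2 in subfertile cows and 64.6% ± 4.96 in fertile cows (SD, n = 6 each).

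UNC5B, the UNC5 receptor of endothelial tip cells, was higher in subfertile cows at 68 of its 71 sites. Its mean ran from 85.2 to 90.9% in subfertile cows (median 89.4%) and from 5.27 to 85.0% in fertile cows (median 48.1%). The groups were apart only just, since the lowest subfertile cow, at 85.2%, lay next to fertile cow 1 at 85.0%. The difference was 37.5 points (log2 difference 2.53, SE 0.77, unadjusted p 0.00640 and adjusted p 0.0731 by limma). The SD was 2.50 points in the subfertile cows and 29.1 points in the fertile cows. Fertile cow 2 was at 0 at 65 of 69 UNC5B sites with a value.

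The UNC5B sites lay between positions 27356417 and 27439373 of chromosome 28, and the levels of the fertile cows came in steps. In the 15 sites of intron 2 at 27423233 to 27424139, the subfertile cows lay at 84.9 to 92.7% (median 88.4%), and the fertile cows at 6.67% in cow 2, 42.8 to 51.9% in cows 3 to 6 and 83.8% in cow 1. The groups did not overlap, and the adjusted p was 0.0404 by limma (log2 difference 2.77, SE 0.72). In the 10 sites at 27428701 to 27429800, the subfertile cows lay at 90.2 to 94.8%, fertile cow 2 at 0, fertile cows 3 to 5 at 39.7 to 48.9%, and fertile cows 1 and 6 at 83.1 and 94.2% (adjusted p 0.0494 by limma). Over all 7 clusters fertile cow 2 stayed under 15% and fertile cow 1 above 80%. UNC5B also held 8 of the 28 exon sites of the members, all higher, in exons 6, 9, 13 and 14.

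The other UNC5 genes were lower on average in subfertile cows. UNC5D had 30 of 39 sites lower, with 29.6 to 52.8% in subfertile cows (median 38.2%) and 49.1 to 71.2% in fertile cows (median 57.3%). Only subfertile cow 2, at 52.8%, reached the range of the fertile cows, and the difference of -18.3 points had an unadjusted p of 0.0228 and an adjusted p of 0.0941 by limma. Its cluster of 3 sites at 30944241 to 30945346 of chromosome 27 lay at 24.4 to 84.4% in subfertile cows (median 46.9%) and at 83.5 to 93.3% in fertile cows (median 88.2%; adjusted p 0.0456 by limma). UNC5C had 2 higher and 7 lower sites and averaged 40.6% ± 15.1 in subfertile cows and 59.3% ± 19.7 in fertile cows (SD, n = 6 each). UNC5A had 2 lower sites.

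**Figure D5:**
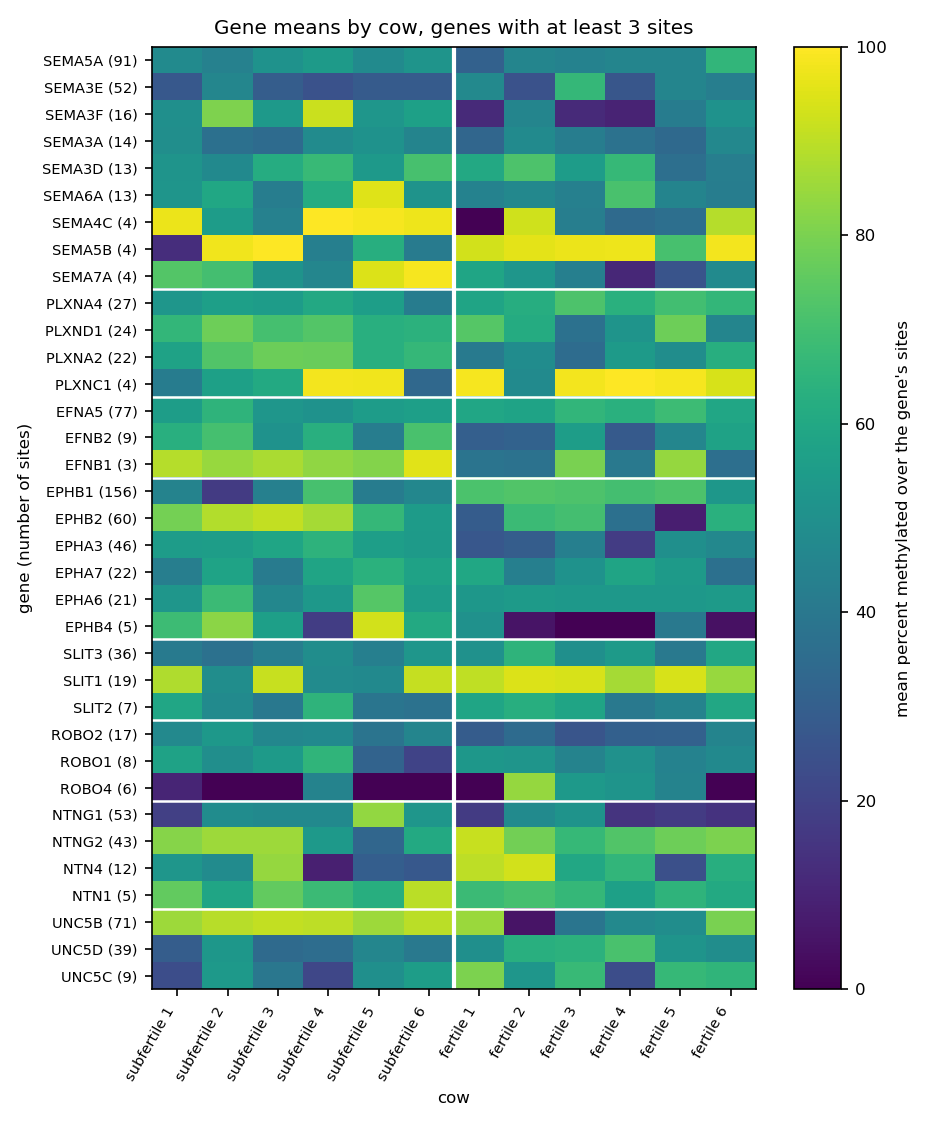
Mean percent methylated over the sites of each gene with at least 3 sites (rows, by family, with the number of sites) in each cow (columns; subfertile cows left and fertile cows right of the white line). UNC5B is near 90% in every subfertile cow and EPHA3 above 54% in every subfertile cow, while in most other rows some cows of 1 group have the levels of the other.

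Promoter sites were few. NTNG2, PLXNA4 and SEMA5A were the members with at least 3 promoter sites, and none of these 3 passed an adjusted p of 0.05 by limma, against 15.9% of all 1292 promoters tested. At an unadjusted p under 0.05 by limma there was 1 of the 3, against 51.9% of all promoters. This was NTNG2, with 5 sites, all lower. They averaged 6 to 41.6% in subfertile cows and 17.8 to 79.8% in fertile cows (adjusted p 0.0787 by limma), so the groups overlapped. The 4 sites of SEMA5A annotated as promoter lay at 63844851 to 63849406 of chromosome 20, inside the gene, whose start is at 63654369. They were at 0 in subfertile cows 1, 2 and 3 and in fertile cow 2 and ran up to 97.4% in subfertile cow 4 and 93.5% in fertile cow 1. EPHA5, the receptor of EFNA5 in retinal mapping, held 1 site annotated as promoter, at position 81205949 of chromosome 6. It lay inside the gene, whose start is at 81239941, and was at 90 to 100% in subfertile cows and 57.1 to 80% in fertile cows.

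That EPHA5 site was 1 of 28 member sites at which the groups did not overlap (2.70%, against 2.93% of all sites that were not distal intergenic). Of the 28, 14 were higher (all sites: 1.73%) and 14 lower (all sites: 1.2%), and they lay in 16 genes. None of the 1037 sites passed an adjusted p of 0.01 by limma, as none of all 216990 did (background 0%), and 536 (51.7%) had an unadjusted p under 0.05, against 52.7% of all sites. Among the 28, the widest positive gap of means stood in intron 2 of UNC5B, at 27421642, with 66.7 to 85.7% in subfertile cows and 0 to 62.5% in the 5 fertile cows with a value. In NTNG2, the site at 102310743 in intron 5 was fully methylated in every subfertile cow and lay at 10 to 93.8% in fertile cows. In EFNA5 the reverse held at 106734610 in the first intron, with 42.1 to 87.5% in subfertile cows and 100% in every fertile cow. In NTNG1, the site at 35874843 in intron 4 lay at 26.7 to 44.4% in subfertile cows and at 71.4 to 91.7% in fertile cows, and its partner on the other strand at 35874844 was also lower without overlap. A site in intron 2 of SEMA3F, at 50181957, averaged 66.1% ± 25.6 in subfertile cows and 17.2% ± 19.9 in fertile cows (SD, n = 6 each). Sites in ROBO1 at 26187863 and in SEMA3A at 36465884 were lower, with 31.2% ± 21.8 in subfertile cows and 71.3% ± 15.4 in fertile cows for ROBO1 and 19.5% ± 17.8 in 5 subfertile cows and 59.5% ± 21.5 in 6 fertile cows for SEMA3A.

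Both strands of a CpG were present for 231 pairs of member sites. The strands of a pair differed by a median of 5.56 points in a cow, as over all 21175 pairs that were not distal intergenic. The direction was the same on both strands in all 231 pairs. Each strand had been selected by the authors for a group difference in the same cows. At 754 member sites (72.7%) the 12 cows spanned nearly the whole scale, with some cow under 10% and some cow over 80%, against 69.7% of all sites that were not distal intergenic. In the 98 member clusters, 22.7% of the 1176 cow values were under 15%, 30.6% between 35 and 65% and 32.9% over 80%. In the 7562 clusters of the table that lay mostly in gene features these shares were 16.8, 36.5 and 29.4%. The origin of these steps was not tested.

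Partners of the same pathways were read from lists of 88 co-receptors, further ligands, adaptors, kinases and cytoskeletal proteins, of which 58 had sites. None of the 58 passed an adjusted p of 0.05 by limma, against 0.112% of all genes. An unadjusted p under 0.05 by limma was found for 19 (32.8%, against 40.4% of all genes), 8 higher and 11 lower in subfertile cows. DCC, the attractive netrin receptor, had 57 of 85 sites higher, at 67.3% ± 3.53 in subfertile cows and 58.2% ± 13 in fertile cows. DSCAM, which also binds netrin, had 17 of 79 higher, at 48.9% ± 17.6 in subfertile cows and 69.5% ± 11.8 in fertile cows (unadjusted p 0.0452 by limma). FLRT1, of a family of membrane ligands of UNC5 receptors, had 10 of 12 sites lower, at 43.5% ± 12.2 in subfertile cows and 78.7% ± 4.66 in fertile cows (SD, n = 6 each; unadjusted p 0.000270 and adjusted p 0.0560 by limma). KALRN, a signalling protein downstream of EphB receptors, had 97 of 119 sites higher, at 62.4% ± 9.0 in subfertile cows and 39.9% ± 15.5 in fertile cows (adjusted p 0.0907 by limma). The semaphorin co-receptors CHL1 and NRCAM, the ligand RGMA, the exchange factor DOCK1, the kinases FER and PAK5 and the actin-binding protein ABLIM1 had an unadjusted p between 0.0616 and 0.877 by limma. Among 51 markers of blood cell types, 26 had sites and 24 were tested. None passed an adjusted p of 0.05 by limma, and 12 had an unadjusted p under 0.05 (50%, against 40.4% of all genes), 5 higher and 7 lower in subfertile cows. The part of blood cell composition in the values above was not tested.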

How the data were processed

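Genomic DNA of whole blood from 12 cows was sequenced after enzymatic conversion, per the labels' protocols. Per the submitters' processing notes, the tools include ChIPseeker 1.32.1, fastp 0.23.1, DRAGEN and Bismark, with ARS-UCD1.2 as the build. The deposited table gives the percent methylated per cytosine and cow, per the file headers, with the authors' difference score in percentage points and the authors' p-value and q-value. All 216990 deposited sites had an absolute difference above 25 points and a q-value of at most 0.00999985. The authors' test and their read minimum: not given in the sources used here. Because the sites were selected for a group difference in the same cows, p-values given here are biased towards small values and are no independent evidence. They set the group difference against the spread of cows within the groups. Nothing in the labels ties the cows to each other, and depth is unknown.

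Percent values were averaged per gene, per promoter (at least 3 sites), and per cluster of at least 3 sites within 1 kb of the next. A cluster belonged to a member when most of its sites did. Limma 3.58.1 in R 4.3.3 was run on log2 of (percent + 5)/(100 - percent + 5), subfertile minus fertile, with group as the only term and adjustment over the whole table. It was checked on simulated data. Genes, promoters and clusters passed at an adjusted p of 0.05 and sites at 0.01. The members and all lists were chosen with earlier results of these data known. Named genes were the 10 members with most sites, the 6 with the largest difference in each direction among those with at least 3 sites, members past a threshold, members with at least 3 promoter sites, the 4 widest sites without overlap and the 4 clusters of smallest p in each direction, and 2 genes per pathway list, 1 of which is not reported here. All other members are given by family, with examples chosen after their values were seen. RefSeq symbols of ARS-UCD2.0 were used for names only. Alternatives covered the points added, plain percent values, leaving out each cow, complete sites, sites with extreme cows, the assignment to genes and the cluster distance. All per-cow columns were matched to a cow.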

Additional observations from a re-analysis of the deposited data

Results flagged for a closer look

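In the gene means of the 26 named genes and in the named clusters, 68 groups of 6 cows were checked for a highest or lowest cow whose gap to the nearest other cow was above Dixon's 95% critical value for the range of its group, and 11 stood out. For normally distributed values chance gives about 1 in 20 groups. These percents are bounded and often lie in steps, so that rate need not hold here and 11 of 68 is no measured excess. The groups checked are not independent, since they share cows and clusters share sites with their genes. No reason for these cows was tested.

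Among gene means, fertile cow 6 lay at 53.1% in EPHB1, with the other fertile cows at 70.3 to 73.0%. Fertile cow 2 lay at 47.8% in PLXNC1, with the others at 93.9 to 100%. Subfertile cow 4 lay at 44.6% in ROBO4, with the other subfertile cows at 0 to 10.2%. Subfertile cow 2 lay at 46.1% in SEMA3E, above the other subfertile cows. Fertile cow 5 lay at 71.1% in SEMA5B, with the others at 93.2 to 98.2%. In SEMA6A 1 cow stood apart in each group, subfertile cow 5 at 95.3% and fertile cow 4 at 71.2%.

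Among clusters, subfertile cow 3 lay at 59.7% in the PLXND1 cluster at 56149578. In the PLXNA4 cluster at 95950369, subfertile cow 6 lay at 0 and fertile cow 1 at 41.1%. In the EPHB1 cluster at 134487708, fertile cow 6 lay at 54.9%.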

How the results depend on the processing

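The count of member genes that passed by limma, 0, became 11 of 38 without sites where some cow was under 10% and some over 80% (EFNA5, EFNB1, EPHA3, EPHA7, NTN1, PLXND1, ROBO2, SEMA3F, SEMA4B, SLIT1 and UNC5B; of all genes 2398 of 5693 passed there). That filter drops the sites at which the cows spanned most of the scale. It left 2 of 71 sites in UNC5B, 2 of 5 in NTN1, 3 of 22 in EPHA7 and 3 of 16 in SEMA3F. It left 4 of 24 in PLXND1, 6 of 17 in ROBO2, 11 of 46 in EPHA3 and 16 of 19 in SLIT1. EFNA5 kept 50 of 77, and EFNB1 and SEMA4B kept all, 3 and 2. The count of member genes that passed was 1 by nearest gene (EPHA5, and of all genes 13 of 10862). With each cow left out it was 0 to 1 (1 without subfertile cow 4, SEMA3G, and of all genes 64 of 9837). Without the sites of extreme cows 1 promoter passed (NTNG2; of all promoters 235 of 314), and 11 of 12 clusters (of all clusters 2685 of 3423). Of the 98 clusters 1 passed with 1 point added in place of 5 (of all clusters 839 of 17767), and 1 to 13 with each cow left out, while leaving out cows took the count over all clusters, 4338, to 1042 to 2812. The share of higher sites, 51.5%, was 54.6% at differences of at least 40 points and 46.6% without the sites of extreme cows (over all sites that were not distal intergenic 50.6, 49.1 and 52.6%). The share without overlap, 2.70%, was 4.80% at 40 points, 4.09% with sites within 1 kb averaged and 7.07% without the sites of extreme cows (over all sites that were not distal intergenic 2.93, 7.37, 2.97 and 5.23%). Calls of member sites stayed at 0 throughout. Over all sites 52 of 65389 passed without the sites of extreme cows, and 0 in every other setting. With each cow left out, 434 to 546 member sites had an unadjusted p under 0.05 by limma. With all 12 cows it was 536 (51.7%, against 52.7% of all sites). The share over all sites with a cow left out is not given here.

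Among the 26 named genes, 13 of the recomputed differences turned sign. ROBO1, at -2.25 points, ran from -6.04 to 2.99 with each cow left out, with 0.7 without subfertile cow 5 and 2.99 without subfertile cow 6. Without sites of extreme cows, EPHB1 was 1.92, EPHB2 -1.45, NTNG2 18.6, PLXNA4 11.1, ROBO1 3.98, SEMA5A -21.1 and SEMA6A -14.5 points. By nearest gene, EFNA5 was 6.27 and UNC5D 21.6, which counts other sites. With sites within 1 kb averaged, EPHA7 was -3.41 and NTNG2 0.0541. The cause was not tested. Differences that kept their sign moved by over 1.5 times with 1 cow left out in EPHA7 (3.0 points, 0.266 to 5.45), SEMA5A (3.26, 0.189 without fertile cow 1 and 7.2 without fertile cow 6), SEMA3A (3.95, 2.51 without fertile cow 1 and 2.59 without subfertile cow 5), NTNG2 (-11.3, -4.58 without subfertile cow 5), SEMA6A (11.5, 4.52 without subfertile cow 5), SEMA3E (-11.4, -6.53 without fertile cow 3) and PLXND1 (11.2, 7.09 without fertile cow 3). Of the others, 546 kept direction and side of the threshold and 8 came to pass. Leaving genes without a symbol unnamed, chosen after seeing the data, gave 0 of 47 genes. No paired analysis was possible because the replicate numbers follow accession order and pair no cows. Read depth is unknown and limits every percent value.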

Other observations

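Distal intergenic sites whose nearest gene was one of these members numbered 1183, and 622 of them were higher in subfertile cows. They enter none of the comparisons above.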
